A study of Homo sapiens with 9 samples.

Results

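Chemoattractant receptors are G protein-coupled receptors through which phagocytes sense gradients of bacterial peptides, complement fragments and chemokines. Most of them couple to inhibitory G proteins, whose beta-gamma subunits switch on phosphoinositide 3-kinase, phospholipase C and the Rac GTPases that drive migration. They are low on promyelocytes and are acquired as granulocytes and monocytes mature, with CXCR4 running the other way as a receptor that holds immature cells in the bone marrow. Here 8 of them are described: FPR1 and FPR2, the receptors of formylated bacterial peptides (FPR2 also binds lipid and protein mediators such as annexin A1), C5AR1, the receptor of the complement fragment C5a, CCR1 and CCR2, receptors of CC chemokines, CXCR1 and CXCR2, receptors of CXCL8 and related chemokines, and CXCR4, the receptor of CXCL12. They were chosen by name, with earlier results of these data known, as receptors with a probe set named on the array. Each was read at the probe set with the highest mean over the 9 arrays. Shares over all genes given beside their counts are therefore description and not a test. All 8 were found, each with 1 named probe set, among 14778 genes measured.

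HL-60 clone 15 cells were used, a subline of the human promyelocytic leukaemia line HL-60 that can be driven towards eosinophils. The study asked which genes the haematopoietic GTPase RhoH changes. RhoH cells carried a lentiviral RhoH construct inducible with 4-hydroxytamoxifen (4-OHT, a ligand of the oestrogen receptor) and were left without 4-OHT (uninduced RhoH, 3 arrays) or given 100 nM (induced RhoH, 3 arrays), and cells with the GFP control construct were given 100 nM 4-OHT (GFP, 3 arrays). All groups were transduced cells, with 3 biological replicates each according to the series' design. GFP cells without 4-OHT were not analysed here, so the drug, the construct and a difference between the transduced populations cannot be told apart.

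The labels were checked on RHOH itself (probe set 16966214), whose log2 signal was 5.23, 5.25 and 5.15 on the arrays labelled uninduced RhoH, 5.60, 5.73 and 5.45 on those labelled induced RhoH and 5.90, 5.94 and 5.94 on those labelled GFP. RHOH was higher in induced than in uninduced RhoH by 0.38 (SE 0.09, limma adjusted p = 0.0451), a call that held in 6 of 18 alternatives. It was highest in the control arrays. Against GFP it was at -0.72 in uninduced RhoH (limma adjusted p = 0.000420) and at -0.33 in induced RhoH, which did not pass (limma adjusted p = 0.0717). Where the probes lie relative to the construct is not known, so this signal cannot settle the labels. All directions given here are those between arrays by their labels. The cells carried the markers of promyelocytes on all 9 arrays, with MPO, the myeloperoxidase gene, at mean log2 signals of 13.39, 13.12 and 12.20 in uninduced RhoH, induced RhoH and GFP. The arrays' medians lay from 5.43 to 5.55 over 43550 probe sets. Correlations across probe sets were at least 0.995 among GFP arrays and 0.974 to 0.983 among induced RhoH arrays. Uninduced RhoH replicate 1 correlated at 0.980 with the others of its group, which reached 0.995 with each other. The replicate 1 arrays of the 2 RhoH groups correlated at 0.987 with each other, above their correlations within their groups. Some results for the receptors and the pathway lists are also given without them, while the marker genes were not refitted. The arrays measure bulk RNA, in which fewer cells of a type and less RNA per cell cannot be told apart.

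The sequences upstream of the 3 receptors that differed most, FPR2, C5AR1 and CCR1, are shown because these genes carried the differences described next. Each is the 250 bases before the annotated start in RefSeq (GRCh38.p14), 5′ to 3′ on the gene's strand, with capitals marking matches on either strand to the letters of any of 4 motifs of myeloid transcription factors: PU.1 (GAGGAA), RUNX (TGTGGT), C/EBP (TTNNGCAA) and AP-1 (TGANTCA). None of the matches overlapped another. FPR2 has 2 entries there, of which the first is shown, at chr19:51760930-51761179 on the plus strand. C5AR1 lies at chr19:47309611-47309860 on the plus strand and CCR1 at chr3:46208314-46208563 on the minus strand.
FPR2: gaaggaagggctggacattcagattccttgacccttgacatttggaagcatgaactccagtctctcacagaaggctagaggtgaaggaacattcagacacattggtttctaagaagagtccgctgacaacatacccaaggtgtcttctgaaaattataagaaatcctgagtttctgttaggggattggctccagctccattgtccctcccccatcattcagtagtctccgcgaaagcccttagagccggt
C5AR1: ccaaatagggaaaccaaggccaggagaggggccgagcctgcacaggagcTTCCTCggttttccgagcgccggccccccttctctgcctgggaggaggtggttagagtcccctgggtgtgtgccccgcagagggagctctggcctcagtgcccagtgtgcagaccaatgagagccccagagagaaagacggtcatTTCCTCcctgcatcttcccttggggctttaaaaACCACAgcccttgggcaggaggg
CCR1: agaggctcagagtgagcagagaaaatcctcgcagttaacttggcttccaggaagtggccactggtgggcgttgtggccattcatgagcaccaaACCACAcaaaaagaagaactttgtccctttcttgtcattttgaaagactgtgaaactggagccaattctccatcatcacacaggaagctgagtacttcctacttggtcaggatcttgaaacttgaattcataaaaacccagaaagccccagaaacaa

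C5AR1 held 2 matches to the PU.1 letters, starting 201 and 56 bases before the start, and 1 to the RUNX letters at 23. CCR1 held 1 match to the RUNX letters at 157, and neither FPR2 window held any of the 4. Of 35116 RefSeq windows of the same length, 23.6% held the PU.1 letters, 11% the RUNX letters, 9.05% those of C/EBP and 6.57% those of AP-1. The GC content was 47.6% for FPR2, 62.0% for C5AR1 and 45.2% for CCR1. C5AR1 and CCR1 both held the RUNX letters, while no motif of the 4 was held by all 3 genes. The RUNX letters were not particular to them. CXCR1 and CXCR2, not called in any comparison as reported, held them too, at 52 and 240. CXCR4, which ran the other way, held the PU.1 letters at 113 and at 24, in separate windows of its 3. CCR2 held the C/EBP and AP-1 letters, and FPR1 held none. Whether any match is used in these cells was not tested.

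FPR2, C5AR1 and CCR1 were low in uninduced RhoH and high in GFP cells, and differed in where induced RhoH lay between them. FPR2 (probe set 16864751) had log2 signals of 5.05, 5.67 and 5.57 in uninduced RhoH, 6.09, 6.31 and 6.45 in induced RhoH and 8.08, 8.01 and 8.06 in GFP. No 2 groups overlapped, and induced RhoH lay nearer to uninduced RhoH than to GFP. C5AR1 (16863589) was at 6.23, 6.59 and 6.03 in uninduced RhoH, at 6.74, 6.55 and 6.81 in induced RhoH and at 8.07, 8.35 and 8.06 in GFP. Its RhoH groups overlapped and both lay below every GFP array. CCR1 (16952874) was at 5.998, 6.37 and 6.46 in uninduced RhoH, at 7.86, 7.65 and 8.19 in induced RhoH and at 8.34, 8.20 and 8.17 in GFP. Here induced RhoH lay close to GFP and overlapped it, while uninduced RhoH lay below all other arrays.

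**Figure D1:**
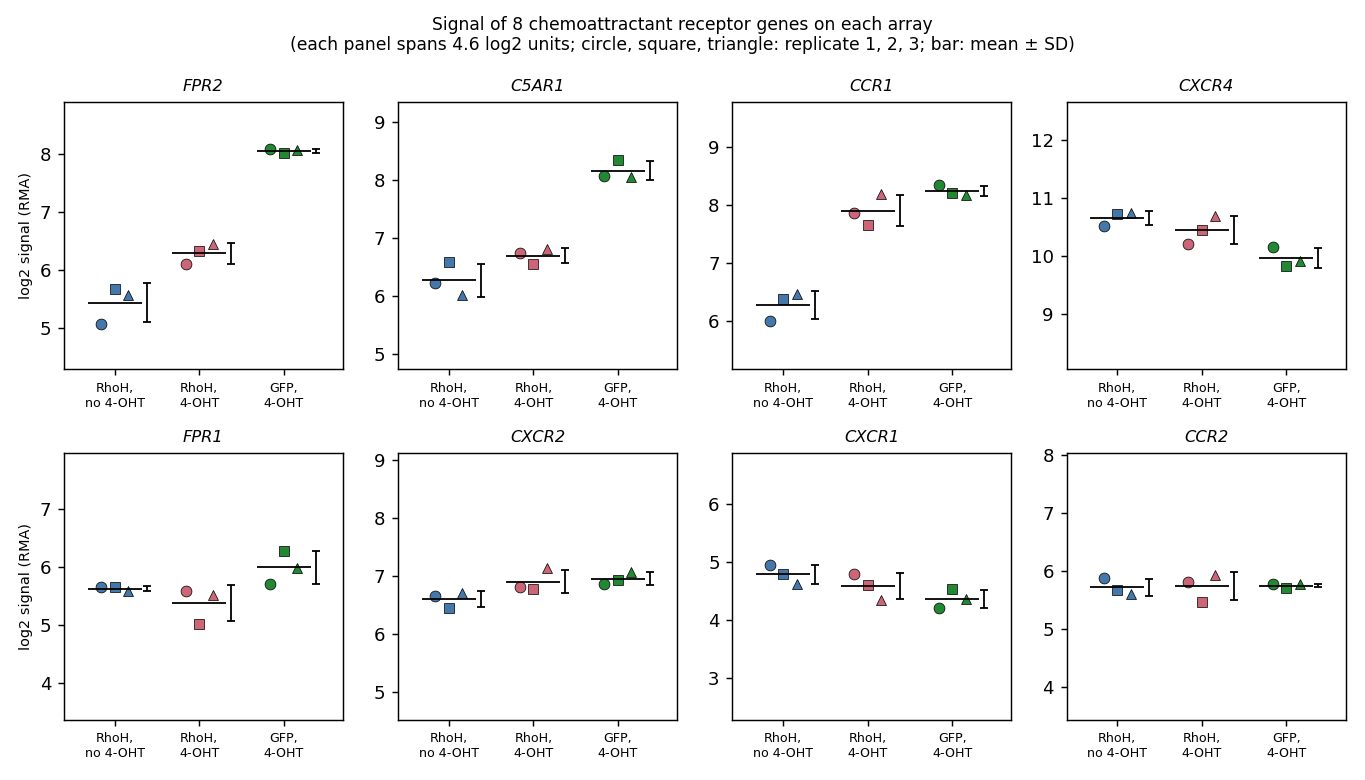
Log2 signal (RMA, vertical axis) of the 8 receptor genes on each of the 9 arrays, by group as labelled, with the mean as a line, the mean ± SD as a bar and circles, squares and triangles for replicates 1, 2 and 3. FPR2 and C5AR1 are highest on the GFP arrays, and CCR1 is highest there only in its mean. CCR1 is at 7.90 in induced RhoH against 6.27 in uninduced RhoH, and CCR2 lies between 5.71 and 5.75 in the means of all groups.

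The remaining receptors moved less. CXCR4 (16903140) ran the other way, with 10.51, 10.71 and 10.73 in uninduced RhoH, 10.19, 10.44 and 10.67 in induced RhoH and 10.14, 9.81 and 9.90 in GFP. Its GFP arrays all lay below the RhoH arrays, and the 2 RhoH groups overlapped. FPR1 (16874945) was at 5.65, 5.65 and 5.58 in uninduced RhoH, at 5.59, 5.02 and 5.52 in induced RhoH and at 5.70, 6.28 and 5.99 in GFP, with GFP highest and the RhoH groups overlapping. CXCR2 (16890752) ran from 6.45 to 6.70 in uninduced RhoH, from 6.77 to 7.13 in induced RhoH and from 6.86 to 7.07 in GFP, so that uninduced RhoH lay below both groups with 4-OHT. CXCR1 (16908307) was dim, from 4.62 to 4.94, from 4.35 to 4.80 and from 4.21 to 4.52 in the same order of groups, and on no array above percentile 20.6 of the tested genes. CCR2 (16940172) ran from 5.60 to 5.87, from 5.47 to 5.93 and from 5.71 to 5.76, with all groups overlapping. RMA compresses low signals towards the background, which can understate differences of dim probe sets such as those of CXCR1, FPR1, CCR2 and, in uninduced RhoH, FPR2 (percentiles 22.4, 36.1 and 33.3 of the tested genes). No background level was computed, so it was not tested whether these signals lay above it.

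The comparison of induced with uninduced RhoH asks what differs with 4-OHT in RhoH cells. The drug and the construct cannot be told apart in it. CCR1 rose 3.08-fold with 4-OHT, with log2 signals of 6.27 ± 0.24 without and 7.90 ± 0.27 with it (mean ± SD, n = 3), a difference of 1.62 (SE 0.15, limma adjusted p = 0.000344), which placed it 26th from the top of all 14778 genes. FPR2 rose 1.81-fold, from 5.43 ± 0.33 to 6.28 ± 0.18 (log2 difference 0.85, SE 0.16, limma adjusted p = 0.0147). The other 6 did not pass. C5AR1 was at 0.42 (95% interval of the fit 0.09 to 0.75, limma adjusted p = 0.193), and higher in 8 of 9 pairs of an induced and an uninduced array. CXCR2 was at 0.30 (0.03 to 0.57, adjusted p = 0.264), with the groups apart.

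The opposite sign was seen for 3 receptors that did not pass, FPR1 at -0.25 (-0.63 to 0.13), CXCR4 at -0.21 (-0.52 to 0.09) and CXCR1 at -0.21 (-0.51 to 0.10), and CCR2 was at 0.02 (-0.25 to 0.30). Of the 8, 2 were called, where 3.78% of all genes were, and both were higher, where 3.02% of all genes were called higher and 0.751% lower. The groups did not overlap for 3 of the 8, against 14.5% of all genes. The median log2 difference was 0.16 over the 8 and -0.0043 over all genes. FPR2 missed the threshold in a fit of the 6 RhoH arrays alone (adjusted p = 0.0917), and its calls and those of CCR1 held without the 2 replicate 1 arrays (0.76, adjusted p = 0.00481, and 1.51, adjusted p = 0.00495). An exact two-sided permutation test of either gene gave p = 0.1, below which 3 arrays against 3 cannot go.

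**Figure D2:**
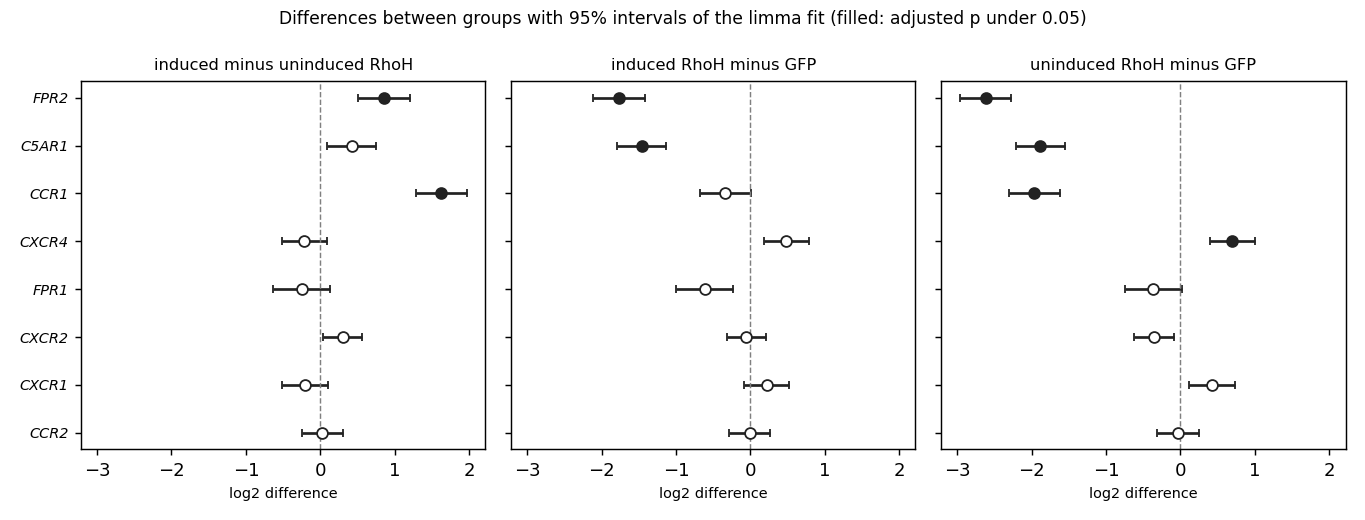
Log2 difference (horizontal axis) of each receptor in the 3 comparisons, as points with 95% intervals of the limma fit, filled where the adjusted p was under 0.05. The filled points are CCR1 and FPR2 for the induction, FPR2 and C5AR1 for induced RhoH against GFP, and FPR2, C5AR1, CCR1 and CXCR4 for uninduced RhoH against GFP.

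Induced RhoH and GFP cells had the same drug, and the comparison asks what differs under it. FPR2 was 3.40-fold lower in induced RhoH (6.28 ± 0.18 against 8.05 ± 0.03, log2 difference -1.77, SE 0.16, limma adjusted p = 0.000207) and C5AR1 2.76-fold lower (6.70 ± 0.13 against 8.16 ± 0.16, -1.46, SE 0.15, limma adjusted p = 0.000460). CCR1 was at -0.34 and did not pass (95% interval -0.68 to 0.01, limma adjusted p = 0.320). An interval this wide does not show that its levels were alike. FPR1 was at -0.61 (-0.99 to -0.23, adjusted p = 0.0829) and CXCR4 at 0.48 (0.18 to 0.79, adjusted p = 0.0876), each with the groups apart. CXCR1 at 0.22 (-0.09 to 0.52), CXCR2 at -0.05 (-0.32 to 0.21) and CCR2 at -0.01 (-0.29 to 0.27) did not pass either.

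Of the 8 receptors, 2 were called in this comparison, where 4.49% of all genes were. Of these 0 were higher and 2 lower, where 1.74% of all genes were called higher and 2.75% lower, and 4 had groups that did not overlap, against 22.5% of all genes. With limma's p under 0.05 before adjustment, the counts were 1 higher and 3 lower. The median was -0.20 over the 8 and 0.033 over all genes. Without induced RhoH replicate 1, CXCR4 passed (0.60, adjusted p = 0.0346), as it did without the 2 replicate 1 arrays (0.60, adjusted p = 0.0269), which made 3 receptors called. FPR2 (-1.67) and C5AR1 (-1.48) kept their calls without those 2 arrays.

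Uninduced RhoH against GFP differs in both construct and drug, and held the widest differences. FPR2 was 6.14-fold lower in uninduced RhoH (log2 difference -2.62, SE 0.16, limma adjusted p = 3.88e-06), as a ratio of measured signals that can understate the change where uninduced FPR2 lay near background. CCR1 was 3.90-fold lower (-1.96, SE 0.15, limma adjusted p = 2e-05) and C5AR1 3.69-fold lower (-1.88, SE 0.15, limma adjusted p = 1.94e-05). CXCR4 was 1.62-fold higher (10.65 ± 0.12 against 9.95 ± 0.17, log2 difference 0.70, SE 0.14, limma adjusted p = 0.00628). The 4 others were at 0.42 for CXCR1 (adjusted p = 0.0678), -0.35 for CXCR2 (0.0812), -0.36 for FPR1 (0.217) and -0.03 for CCR2 (0.899), by limma. Of the 8, 4 were called, where 15.3% of all genes were. Of these 1 was higher and 3 lower, where 6.01% of all genes were called higher and 9.27% lower, and the groups did not overlap for 7, against 37.3% of all genes. The median was -0.36 over the 8 and 0.048 over all genes. CXCR1 passed without induced RhoH replicate 1 or 3 (adjusted p = 0.0433 and 0.0378) and CXCR2 without induced RhoH replicate 3 (0.0311), arrays that enter here only through the estimate of the spread. The 3 comparisons share their groups, so the values of a receptor in them are not independent of each other.

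The order of the group means was uninduced RhoH, induced RhoH, GFP for FPR2, C5AR1, CCR1, CXCR2 and, within 0.033 log2 units, CCR2. It was the reverse for CXCR4 and CXCR1, and FPR1 was lowest in induced RhoH. In that order only FPR2 had both neighbouring steps past the threshold. CCR1 passed for the step from uninduced to induced RhoH, C5AR1 for the step from induced RhoH to GFP, and CXCR4 only for its 2 ends. Taking uninduced RhoH as 0% and GFP as 100% of the log2 gap, induced RhoH lay at 82.8% for CCR1, 32.6% for FPR2 and 22.4% for C5AR1, with the same limit on the low end of FPR2.

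CCR1 thus moved apart from the other 2 when RhoH cells received 4-OHT. A probe set's signal cannot be set against another's, but the difference between 2 probe sets on the same array can be followed across groups. CCR1 minus C5AR1 was -0.01 ± 0.38 (SD, n = 3) in uninduced RhoH, 1.20 ± 0.16 in induced RhoH and 0.07 ± 0.21 in GFP. The induced arrays (1.10 to 1.38) lay above all 6 others (up to 0.43). CCR1 minus FPR2 was 0.84 ± 0.13, 1.61 ± 0.24 and 0.19 ± 0.08 in the same order, again highest in induced RhoH with no overlap.

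Several of these genes lie beside a paralogue in the RefSeq gene order, which allows the same reading within a cluster. FPR1, FPR2 and FPR3 are neighbours on chromosome 19, C5AR1 is followed by C5AR2, which encodes a second C5a receptor, CXCR1 and CXCR2 are neighbours on chromosome 2, and CCR1, CCR3 and CCR2 follow each other on chromosome 3. FPR2 minus FPR1 was -0.20 ± 0.34 in uninduced RhoH, 0.91 ± 0.39 in induced RhoH and 2.06 ± 0.32 in GFP, with no overlap between groups. FPR3 itself was at 4.56, 4.47 and 4.50 in the group means and was not called in any comparison. C5AR1 minus C5AR2 was 0.09 ± 0.48, 0.05 ± 0.09 and 1.41 ± 0.15, with every GFP array above 1.3 and every RhoH array below 0.63. C5AR2 was lower in uninduced RhoH than in GFP by -0.56 (limma adjusted p = 0.00924). Its group means were 6.19, 6.65 and 6.75, in the same order of groups. With 4-OHT in RhoH cells C5AR2 was at 0.45 (limma adjusted p = 0.0671) and C5AR1 at 0.42, and neither passed. Their difference thus stayed level between the RhoH groups while both means were higher in induced RhoH.

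CCR1 minus CCR2 was 0.56 ± 0.38 in uninduced RhoH, 2.16 ± 0.11 in induced RhoH and 2.49 ± 0.09 in GFP, a rise carried by CCR1 while the group means of CCR2 lay within 0.033 log2 units. CXCR2 minus CXCR1 was 1.81 ± 0.23, 2.32 ± 0.41 and 2.59 ± 0.16, with overlap between each RhoH group and its neighbour in this order.

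**Figure D3:**
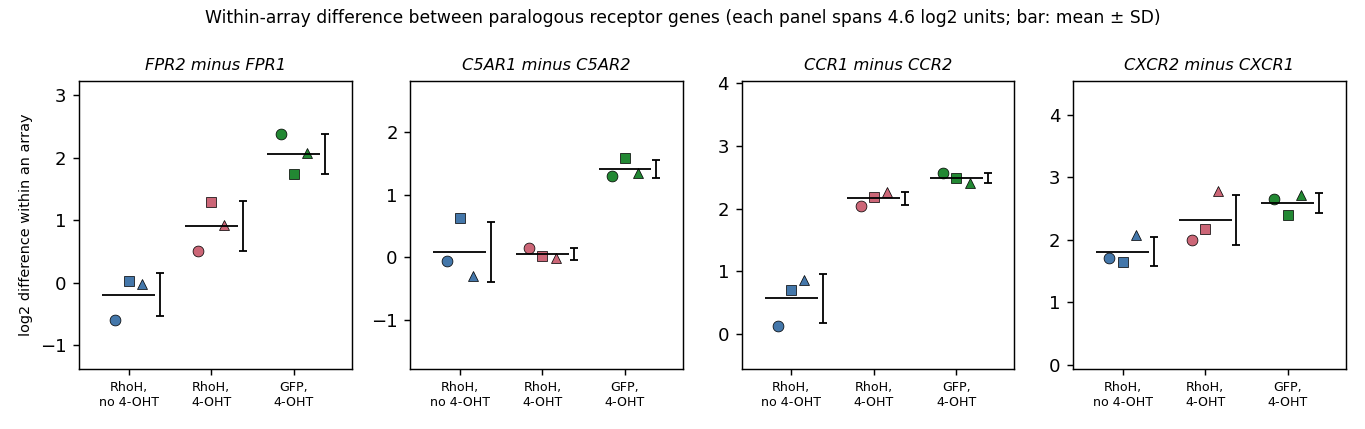
Within-array log2 difference (vertical axis) between paralogous receptor genes on the 9 arrays by group, with the mean as a line and mean ± SD as a bar. FPR2 minus FPR1 rises from -0.20 in uninduced RhoH to 2.06 in GFP, CCR1 minus CCR2 is above 2 on all arrays with 4-OHT, and C5AR1 minus C5AR2 is 1.41 in GFP against 0.09 and 0.05 in the RhoH groups.

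Among 35 further chemoattractant receptors, 29 were measured. CYSLTR1, the receptor of cysteinyl leukotrienes on eosinophils and smooth muscle, rose with 4-OHT in RhoH cells, from 7.13, 7.86 and 7.83 to 8.88, 8.65 and 8.59 (log2 difference 1.10, SE 0.18, limma adjusted p = 0.00759), and was at 8.99, 8.95 and 8.93 in GFP. C3AR1, the receptor of the complement fragment C3a, rose from 7.45, 7.69 and 7.50 to 8.66, 8.27 and 8.36 (0.89, SE 0.12, limma adjusted p = 0.00360) and was at 8.54, 8.27 and 8.33 in GFP. Like CCR1, both lay near the GFP arrays once 4-OHT was given. Of the 29, 2 were higher and 0 lower in this comparison, where 3.02% of all genes were higher and 0.751% lower, and the median was 0.05. CYSLTR1 missed the threshold in a fit of the 6 RhoH arrays alone (adjusted p = 0.0589).

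Against GFP, 1 of the 29 was higher in induced RhoH, HRH4, the histamine receptor that attracts eosinophils and mast cells (1.00, SE 0.15, limma adjusted p = 0.00437), and 0 were lower, where 1.74% of all genes were higher and 2.75% lower. HRH4 was at 8.13, 8.62 and 8.76 in uninduced RhoH, at 8.90, 9.06 and 9.07 in induced RhoH and at 8.08, 7.95 and 8.01 in GFP, so that induced RhoH was the highest group. Its difference between the RhoH groups was 0.51 and did not pass (limma adjusted p = 0.105). In uninduced RhoH against GFP it was at 0.49 and did not pass either (limma adjusted p = 0.0510). Without the 2 replicate 1 arrays that difference of HRH4 passed (0.68, adjusted p = 0.00106). In the same fit CYSLTR1 was called lower in induced RhoH than in GFP (-0.34, adjusted p = 0.0272). In uninduced RhoH against GFP, CCR4 was higher (0.52) and CYSLTR1 (-1.35), C3AR1 (-0.84), CXCR3 (-0.63) and C5AR2 were lower, by limma, 1 and 4 of the 29, where 6.01% of all genes were higher and 9.27% lower. The CCR4 call was lost without uninduced RhoH replicate 1 or 3 or GFP replicate 1 or 2 (adjusted p = 0.0532, 0.0742, 0.0841 and 0.0874), and without the 2 replicate 1 arrays (0.0511). CCR4 was also dim, at percentile 14.7 of the tested genes by its mean over the 9 arrays.

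The ligands of the 8 receptors were measured for 20 of 24 genes. C5, from which C5a is cut, rose in RhoH cells with 4-OHT from 5.85, 5.97 and 5.89 to 6.72, 6.87 and 6.96 (0.95, SE 0.09, limma adjusted p = 0.000347) and was at 7.53, 7.59 and 7.42 in GFP, each group apart from the next. ANXA1, which encodes the FPR2 ligand annexin A1, rose from 10.85, 10.84 and 10.85 to 11.56, 11.30 and 11.34 (0.55, SE 0.09, limma adjusted p = 0.00698). CCL2, the main ligand of CCR2, rose as well, from 4.41, 4.32 and 4.42 to 9.71, 7.32 and 8.18 (4.02, SE 0.45). The gene of its receptor was at 0.02. Low signals of CCR2, and of CCL2 in uninduced RhoH, can understate either difference. Of the 20, 3 were higher and 0 lower with a median of 0.04, against 3.02% and 0.751% of all genes. ANXA1 missed the threshold in a fit of the 6 RhoH arrays alone (adjusted p = 0.0588), and the CCL2 difference was 3.37 without induced RhoH replicate 1.

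In induced RhoH against GFP, 0 of the 20 ligand genes were higher and 1 was lower, C5 (-0.66, SE 0.09, limma adjusted p = 0.00296), against 1.74% and 2.75% of all genes. CCL2 was at -1.85 and just missed the threshold (limma adjusted p = 0.0504). It passed without induced RhoH replicate 1 (-2.51, adjusted p = 0.000530) and without the 2 replicate 1 arrays (adjusted p = 0.00165), and 2 ligand genes were also called lower under 5 other settings. In uninduced RhoH against GFP, 2 were higher, MIF (0.55) and APP (0.33), and 4 were lower, CCL2 (-5.87), CXCL8 (-1.95), C5 (-1.61) and ANXA1 (-0.70), by limma, against 6.01% and 9.27% of all genes. The APP call was lost without uninduced RhoH replicate 2 or 3 or any 1 GFP array (adjusted p = 0.0650 to 0.0855). CXCL12, the ligand of CXCR4, was at 6.11, 6.13 and 6.02 in the 3 group means and was not called.

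**Figure D4:**
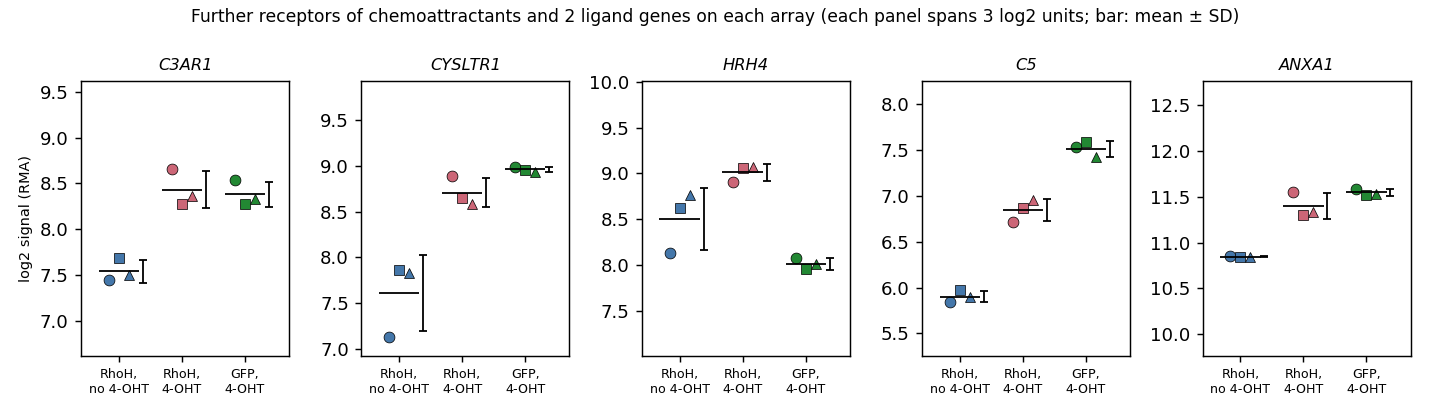
Log2 signal (vertical axis) on each array of 3 further receptors, C3AR1, CYSLTR1 and HRH4, and of the ligand genes C5 and ANXA1, with the mean as a line and mean ± SD as a bar. C3AR1 and CYSLTR1 lie near the GFP arrays in induced RhoH, HRH4 is highest in induced RhoH, and C5 rises in steps from 5.90 to 6.85 to 7.51 in the group means.

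Of 35 genes for G proteins and effectors of these receptors, only 13 were measured under a name. In RhoH cells with 4-OHT 4 were higher and 0 lower (median 0.26), the Src family kinases LYN (1.03, SE 0.09, limma adjusted p = 0.000186) and FGR (0.55, adjusted p = 0.0280), and the actin regulators DOCK8 (0.58, adjusted p = 0.00569) and WAS (0.50, adjusted p = 0.0201). Of all genes 3.02% were higher and 0.751% lower here. LYN went from 8.62, 8.76 and 8.59 to 9.67, 9.58 and 9.80, against 9.97, 9.98 and 9.95 in GFP. In induced RhoH against GFP 0 were higher and 3 lower (median -0.16), DOCK8 (-0.64), FGR (-0.56) and ELMO2 (-0.40), against 1.74% and 2.75% of all genes. In uninduced RhoH against GFP 0 were higher and 5 lower (median -0.33), LYN (-1.31), DOCK8 (-1.22), FGR (-1.12), ELMO2 (-0.68) and WAS (-0.38), by limma, against 6.01% and 9.27% of all genes. The 4 called with 4-OHT were 2 without uninduced RhoH replicate 1 or 3 and 1 in a fit of the 6 RhoH arrays alone. FGR lost its call without any 1 uninduced RhoH or GFP array or induced RhoH replicate 2 (adjusted p = 0.0578 to 0.0891). The 3 against GFP were 1 without induced RhoH replicate 1 or 2 or any 1 GFP array. In uninduced RhoH against GFP, leaving out the 2 replicate 1 arrays gave 1 higher, GNA12 (0.34, adjusted p = 0.0276), and 4 lower.

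Receptor desensitisation and trafficking genes were measured for 9 of 19. RGS10, which shortens G protein signals, rose with 4-OHT (0.57, SE 0.12, limma adjusted p = 0.0314), with 1 higher and 0 lower and a median of 0.05, against 3.02% and 0.751% of all genes. That count was 0 without any 1 GFP array, without replicate 1 or 3 of either RhoH group, and without the 2 replicate 1 arrays together. In induced RhoH against GFP 0 of the 9 were called by limma, while 1 was higher and 1 lower with p under 0.05 before adjustment. In uninduced RhoH against GFP the receptor kinase gene GRK6 was higher (0.55) and RGS1 (-0.91) and RGS10 (-0.87) were lower, against 6.01% and 9.27% of all genes. RGS1 and GRK6 lost these calls without any 1 uninduced RhoH array (adjusted p = 0.0564 to 0.0632 and 0.0544 to 0.0800). GRK6 lost it without any 1 GFP array too (0.0664 to 0.0968). RGS1 lost it without GFP replicate 1 (0.0608) and without the 2 replicate 1 arrays of the RhoH groups (0.0777). RGS1 was also dim, at percentile 14.2 of the tested genes by its mean over the 9 arrays. The NADPH oxidase genes, which these receptors activate in phagocytes, were not measured under a name (0 of 6).

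The lists of maturation and lineage markers did not share 1 direction across the groups. Their counts, here and in the next paragraph, stand against these shares of all genes called. With 4-OHT in RhoH cells 3.02% were higher and 0.751% lower, and in induced RhoH against GFP 1.74% and 2.75%. For uninduced RhoH against GFP the shares were 6.01% and 9.27%. Monocyte and macrophage markers were measured for 9 of 10 genes, and their summed signal on the log2 scale was 10.00 to 10.08 in uninduced RhoH, 10.63 to 11.04 in induced RhoH and 11.17 to 11.27 in GFP, in the order of FPR2, C5AR1 and CCR1. Such a sum weighs the brightest gene most, here CD68 (9.02, 10.13 and 10.43 in the group means), and not every marker followed this order. The median over the list was 0.009 in induced RhoH against GFP and -0.31 in uninduced RhoH against GFP. CD86 (2.07) and CD68 (1.11) rose with 4-OHT in RhoH cells, 2 of the 9 (median 0.12 over the list), and CD14 was lower in induced RhoH than in GFP (-1.35), 1 of the 9. In addition 4 of the 9 were lower in uninduced RhoH than in GFP. CD163, a macrophage marker, had the reverse order of means, at log2 signals of 4.26, 4.13 and 4.05, and was not called. Azurophil granule markers of promyelocytes, 6 of 7 measured, ran the other way at 14.94 to 14.99, 14.62 to 14.87 and 13.85 to 13.90, with 5 of the 6 called higher in each RhoH group than in GFP.

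Eosinophil markers, 4 of 9 measured, were at 10.05 to 10.74, 9.67 to 10.41 and 8.30 to 8.31, with 2 of the 4, EPX and CLC, called higher in induced RhoH than in GFP and 3 in uninduced RhoH. Mast cell and basophil markers, 5 of 7 measured, were highest in induced RhoH (9.92 to 10.06, against 9.12 to 9.29 in uninduced RhoH and 9.11 to 9.19 in GFP), and 3 of the 5, GATA2, CPA3 and KIT, rose with 4-OHT. TPSAB1 was at -0.44 there and did not pass (limma adjusted p = 0.161). Against GFP, CPA3 (1.91) and GATA2 (0.67) were higher and KIT (-0.53) lower in induced RhoH, and 2 were higher and 2 lower in uninduced RhoH. Neutrophil maturation markers, 10 of 12 measured, overlapped at 12.15 to 12.35, 12.16 to 12.59 and 12.12 to 12.18, with 1 of the 10, HP, called higher with 4-OHT (1.46). Single genes of this list differed from GFP in opposite directions. CEACAM8, a granulocyte adhesion molecule, was higher in induced RhoH by 2.49 (limma adjusted p = 6.1e-06) and in uninduced RhoH by 2.50, and HP, which encodes haptoglobin, was lower (-1.13 and -2.58). The single lymphoid marker measured, NCAM1, was at 5.37, 5.51 and 5.27, and the 2 erythroid and megakaryocyte markers were at a summed 6.83 to 7.13, 6.89 to 7.01 and 6.82 to 6.88. The part of any of these cell types or stages in the receptor differences was not tested.

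The genes with the profile most like each called receptor were found as those with the smallest root mean square difference of mean-centred log2 signal over the 9 arrays. For FPR2 these were OGFRL1 (0.11 log2 units), CDKL1 (0.19) and IRS1 (0.20), and for C5AR1 the water and glycerol channel gene AQP9 (0.14), the interleukin 18 receptor subunit gene IL18RAP (0.15) and PHC1 (0.15). For CCR1 they were the MAP kinase phosphatase gene DUSP10 (0.11), UBA7 (0.11), which activates the ubiquitin-like ISG15, and the AP-1 subunit gene JUND (0.13). For CXCR4 they were FDX1 (0.07), PLXNA1 (0.09) and RNF122 (0.09). The SD of the receptors themselves over the 9 arrays was 1.17, 0.87, 0.93 and 0.35 log2 units in that order. DUSP10 went from 8.21 to 9.81 with 4-OHT in RhoH cells and was at 10.16 in GFP, while AQP9 went from 4.51 to 4.68 and was at 6.44.

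**Figure D5:**
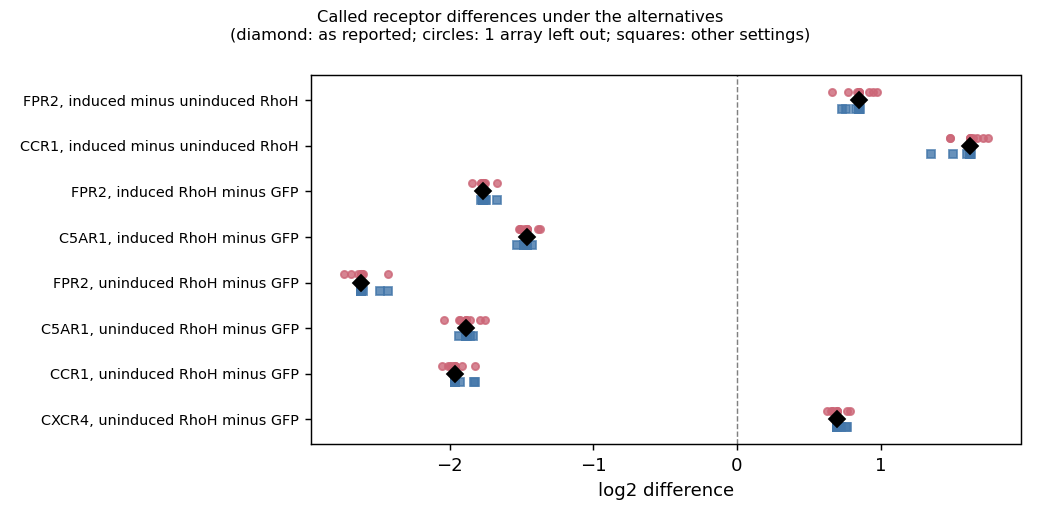
Log2 difference (horizontal axis) of the 8 called receptor differences as reported (diamonds), with 1 array left out (circles) and under the other settings (squares). Each kept its direction under every alternative shown, with FPR2 between 0.66 and 0.97 and CCR1 between 1.35 and 1.75 for the induction.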

How the data were processed

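Total RNA of 9 samples was profiled on Affymetrix whole-transcript arrays. The authors deposited log2 values for 43550 probe sets. They are listed as made with Affymetrix Power Tools and RMA, with limma also listed, per the submitters' processing notes; versions and genome build are not given in the sources used here. No further normalization was applied. Platform annotation named 15659 probe sets with 1 gene symbol each, none with several, and left 27891 unnamed. All were matched to RefSeq (GRCh38.p14), and the probe set with the highest mean represented a gene (521 genes had more than 1), which left 14778 genes.

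Groups were taken from the sample titles. limma 3.58.1 in R 4.3.3 fitted 3 group means to all 9 arrays (6 residual and 3.86 prior degrees of freedom), with Benjamini-Hochberg adjustment over all genes within a comparison and a call at an adjusted p under 0.05. All adjusted p-values are from limma, and it was tested on simulated data. No 2 arrays held identical values. The values hold no counts, so the number of arrays limits the precision.

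The receptors and gene lists were chosen with earlier results of these data known. The lists hold 5 pathway groups and 7 marker groups. Named besides RHOH and the receptors are up to 3 called genes with the highest and 3 with the lowest difference per list and comparison, and the 3 nearest profiles per called receptor. WAS, C5AR2, ANXA1, ELMO2, CCL2, CYSLTR1, HRH4, GNA12, HDC and TPSAB1 were named in some comparisons outside this rule. C5AR2, FPR3, CXCL12, CD163, NCAM1 and MPO were named by their levels, also outside it. All of these were named after their values were seen. The motifs and the pairs of receptors were also chosen after seeing the data. A planned background level from olfactory receptor genes was not used, since 1 such gene was named. Alternatives were all probe sets, 6 arrays, dim genes left out, quantile and median scaling, array weights, an intensity trend, a replicate block, and arrays left out. They were run for the receptors, the pathway lists and all genes, and not for the marker lists.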

Additional observations from a re-analysis of the deposited data

How the results depend on the processing

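Of the 8 called receptor differences, 7 kept their call and direction in all alternatives run. That of FPR2 with 4-OHT in RhoH cells missed the threshold in a fit of the 6 RhoH arrays alone (0.85, adjusted p = 0.0917). In that fit the called receptors were 1 instead of 2 for the induction, and the called genes 190 instead of 558. Leaving out 1 array, the 2 calls of the induction ran from 0.66 to 0.97 for FPR2 and from 1.48 to 1.75 for CCR1. Other settings brought receptors past the threshold that were not called as reported. With array weights, in induced RhoH against GFP, these were CCR1 (-0.47), CXCR4 (0.48) and FPR1 (-0.81), 5 receptors instead of 2, and in uninduced RhoH against GFP CXCR1 (0.33) and CXCR2 (-0.35). With the genes quantile-normalized again they were CXCR4 (0.50) and FPR1 (-0.65) in induced RhoH against GFP, 4 instead of 2. With only the 6 arrays compared they were CXCR1 (0.42) and CXCR2 (-0.35) in uninduced RhoH against GFP, and without the 2 replicate 1 arrays CXCR4 in induced RhoH against GFP (0.60). The cause was not tested.

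With 1 array left out, CXCR4 ran from 0.36 to 0.60 in induced RhoH against GFP (adjusted p = 0.0346 to 0.324), and in uninduced RhoH against GFP CXCR1 from 0.35 to 0.51 (0.0378 to 0.229) and CXCR2 from -0.40 to -0.28 (0.0311 to 0.266). Differences close to 0 changed sign, none of them called. These were CCR2 for the induction with array weights (-0.053) and with 1 array left out (-0.070 to 0.16), CCR2 against GFP with 1 array left out (-0.10 to 0.12 in induced and -0.11 to 0.023 in uninduced RhoH), and CXCR2 in induced RhoH against GFP (-0.17 to 0.013). CXCR1 was among the dimmest 25% of genes and has no value where these were left out.

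The count of called genes for the induction was 953 (588 higher, 365 lower) with quantile normalization again, where 447 higher and 111 lower were called as reported, 950 (562 and 388) with array weights, and 304 to 666 with 1 array left out. Array weights gave 1176 instead of 664 in induced RhoH against GFP and 4326 instead of 2258 in uninduced RhoH against GFP, and leaving out 1 array gave 279 to 861 and 1450 to 2670. Median differences over all genes moved by under 0.1 under both scalings.

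Replicate numbers are shared by the groups, but the titles do not say whether same-numbered arrays belong together, and the reported fit did not pair them. Deviations of same-numbered arrays correlated at 0.54, 0.37 and 0.07 between the RhoH groups and at -0.03 to 0.15 against GFP. These were not all near 0, so a fit with the replicate number as a block is also given. Arrays correlated best with their own number in 3 of 6, 5 of 6 and 4 of 6 cases. With the replicate number as a block the called receptors were 2, 2 and 6 instead of 2, 2 and 4, with CXCR1 (0.42, adjusted p = 0.0493) and CXCR2 (-0.35, adjusted p = 0.0308) passing in uninduced RhoH against GFP, and the called genes were 684, 820 and 2558. Low signals limit what can be read of CXCR1, FPR1, CCR2, CCR4, RGS1, KIT and RHOH and, in uninduced RhoH, of FPR2 and CCL2.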
